A study of Mus musculus with 7 samples.

Results

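Neuropeptide precursor genes encode the proneuropeptides that cortical neurons cut into signalling peptides. The genes described here are Cck, Penk, Pdyn, Tac1, Crh, Cort, Adcyap1, Pnoc, Cartpt and Nts, which were taken by symbol from the protein-coding genes of a mouse RNA-seq table. They are 10 of its 55416 genes, of which 21885 are protein-coding, and 9 of the 10 had enough counts for testing beside 17254 genes in all. The libraries came from prefrontal cortex (PFC) of female C57BL/6 wild-type mice after injection of recombinant adeno-associated virus (rAAV) into the PFC. The 3 Ctr libraries came from mice that received the empty vector, the 2 Ref libraries from mice that received the human lncRNA PAXIP1-AS1 with the reference C allele, and the 2 Alt libraries from mice that received it with the alternative G allele. All 3 vectors carried an EGFP reporter, and expression was driven by the human synapsin promoter, which is active in neurons, so the tissue sequenced was a mixture of infected neurons, uninfected neurons and glia. The comparison of Alt with Ref addresses the allele, and the comparisons with Ctr address overexpression of either form.

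A neuropeptide is made as a long precursor, which is sorted into dense-core vesicles, cut by prohormone convertases and carboxypeptidases and released mainly during sustained firing. The peptides then act on G protein-coupled receptors, often on other cells than those that released them. In cortex, Cck is made by a class of interneurons and also by many pyramidal neurons, while Penk, Tac1, Crh, Cort and Pnoc are best known from GABAergic interneurons, and many of these genes respond to neuronal activity through cAMP and calcium signals.

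Sequencing depth, as total counts, ranged from 19382848 to 20750857 over the Ctr libraries and from 19731791 to 19801971 over the Ref libraries. Alt replicate 1 was the shallowest at 16655697 and Alt replicate 2 had 18673575. The Alt libraries lay further apart than those of the other groups: their chi-square per degree of freedom was 60, against 19.0 to 25.7 between the libraries of Ctr or of Ref. With 2 libraries this does not say which of them is unusual, so results that change when an Alt library is left out are given with and without it. The labels number the replicates but do not say that each is a separate animal, so p-values measure the spread between these samples. For single genes an exact two-sided permutation test on CPM (counts scaled to the TMM-normalized library size) was run beside edgeR's test, and its smallest possible p is 0.2 for 2 libraries against 3 and 0.333 for 2 against 2, so it cannot reach 0.05 in this design. The excitatory cortical marker Slc17a7 was high in every library, at 1126 to 1308 CPM in Ctr, 1284 and 1159 in Ref, and 1558 and 1467 in Alt, with both Alt libraries above all others (Log2FC 0.32 against Ctr, adjusted p = 0.238).

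Promoter sequence is shown for the members because the CREB family of factors, which links neuronal activity to transcription of many precursor genes, binds the cAMP response element TGACGTCA and its core TGACG. RefSeq promoter windows of build GRCm38.p6 were found for 7 of the 10 genes, all but Penk, Crh and Pnoc. Within 250 bases before the start, the core or its reverse complement CGTCA was present in 6 of these 7 genes, with none in Pdyn, and in 19.8% of 27025 genes with such a window. The sites of the 6 genes are printed 5′ to 3′ on the gene's strand with the match in capitals. They lie at chr9:121495725-121495754 on the minus strand for Cck, at chr6:7554851-7554880 and chr6:7555005-7555034 on the plus strand for Tac1, at chr4:149126765-149126794 on the minus strand for Cort, at chr17:93198913-93198942 on the plus strand for Adcyap1, at chr13:99900777-99900806 on the minus strand for Cartpt and at chr10:102490568-102490597 on the minus strand for Nts.
Cck: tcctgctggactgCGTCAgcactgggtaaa
Tac1, distal: ttccctaaaattgCGTCAtttcgaacacaa
Tac1, proximal: ggctctacaggctCGTCAcgcctgagataa
Cort: gctccggcttgtgCGTCAccgcgtgagtgt
Adcyap1: gggactaggatgcTGACGtcttttactgat
Cartpt: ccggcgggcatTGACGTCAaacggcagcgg
Nts: aattagggaagatCGTCActttccatcaag

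The match began 47 bases before the start in Cck, 197 and 43 in Tac1, 18 in Cort, 91 in Adcyap1, 112 in Cartpt and 166 in Nts. Only Cartpt held the full palindrome TGACGTCA, which was present in 1.77% of all windows' genes. Cck, distal Tac1 and Cort shared the longer form TGCGTCA, a comparison made after the windows had been read. On either strand this form was present in 3 of the 7 genes and in 2% of all genes. A match of letters describes the sequence and does not show that a factor binds there.

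Levels between genes were compared per length, as RPKM, which is CPM divided by gene length in kilobases. In Ctr, Cck, the precursor of cholecystokinin, led by far with 151 ± 43.8 RPKM (SD, n = 3) and made up 81.8% of the summed per-length level of the 10 genes. Penk followed with 11.5 ± 2.74 RPKM, Adcyap1 with 8.96 ± 0.920 RPKM and Pdyn with 5.59 ± 0.555 RPKM. The other 6 genes stood in the order Cort, Crh, Tac1, Pnoc, Cartpt and Nts, from 2.09 RPKM for Cort to 0.131 RPKM for Nts.

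Neighbours in this order were not all separable. Cck lay 13.1-fold above Penk, Adcyap1 1.60-fold above Pdyn and Pdyn 2.67-fold above Cort, each without overlap of the Ctr libraries. The ranges of the 3 Ctr libraries overlapped between Penk and Adcyap1 and between every pair of neighbours from Cort down to Nts. All 10 genes were shorter than the median tested gene of 4051 bases, with lengths from 677 bases for Cort to 3777 bases for Adcyap1.

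**Figure D1:**
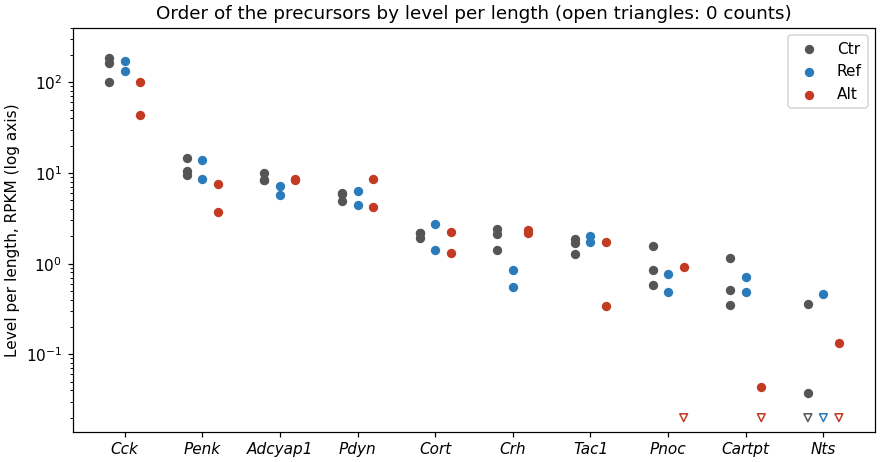
Level per length of the 10 precursor genes in each of the 7 libraries, in RPKM on a log axis, ordered by the mean over Ctr, with open triangles for libraries at 0 counts. Cck stands 13.1-fold above Penk in Ctr, and Nts, Cartpt and Pnoc have libraries at 0 counts.

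In Alt versus Ctr, Cck, Penk and Cartpt were lower in both Alt libraries than in every Ctr library, and no precursor was higher without overlap. Among all genes tested 18.1% were lower and 16.8% higher without overlap in the same comparison. With edgeR's quasi-likelihood test the same 3 of 9 genes were lower at an unadjusted p of 0.05, where 19.8% of all genes passed, 10.3% lower and 9.44% higher. After Benjamini-Hochberg adjustment over all genes 0 precursors and 0% of all genes passed in edgeR, while DESeq2 called Cck with an adjusted p of 0.0129 and Penk with 0.0452, beside 1123 genes in all, 9.44% of the 11902 to which it gave an adjusted p. It gave Crh and Cartpt none in either comparison with Alt. The median log2 fold change (Log2FC) was -0.62 over the 9 precursors, 7 of which lay below zero, and -0.03 over all genes tested. Without Alt replicate 1 the median over the precursors was -0.39, with 1 of them past an unadjusted p of 0.05 beside 8.14% of all genes, and without Alt replicate 2 it was -1.62, with 6 past it beside 33.2% of all genes.

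In Alt versus Ref, which differ in the allele, Cck, Penk, Tac1 and Cartpt were lower and Crh and Adcyap1 higher without overlap, where 26.1% of all genes were lower and 21.6% higher without overlap. At an unadjusted p of 0.05 Cck, Penk and Cartpt were lower and Crh was higher, 4 of 9 genes, while 15.5% of all genes passed, 8.83% lower and 6.71% higher. After adjustment edgeR called 0 precursors and 0.0058% of all genes, and DESeq2 called 1 precursor, Cck, with an adjusted p of 0.0333, beside 449 genes in all, 5.46% of the 8222 given an adjusted p. The median Log2FC was -0.42 over the precursors and -0.04 over all genes. For the precursors it was -0.65 without Ref replicate 1, -0.06 without Ref replicate 2, -0.32 without Alt replicate 1, -1.59 without Alt replicate 2 and -0.19 after a correction for gene length. Of the 9 genes 2 passed an unadjusted p of 0.05 without Ref replicate 1 or without Ref replicate 2, where 4.19% and 10.9% of all genes passed. With Alt replicate 1 left out 1 passed beside 6.76% of all genes, and with Alt replicate 2 left out 7 passed beside 28.9%.

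In Ref versus Ctr, which addresses overexpression of the C allele, Crh and Adcyap1 were lower without overlap, where 10.5% of all genes were lower and 12.4% higher without overlap. The same 2 genes were lower at an unadjusted p of 0.05, where 3.14% of all genes passed, 0.945% lower and 2.19% higher. After adjustment 0 precursors were called by edgeR and by DESeq2, and 0% of all genes by edgeR and 6 genes, 0.0348%, by DESeq2. The median Log2FC was -0.06 over the precursors and 0.01 over all genes. Its sign for the precursors depended on the Ref library kept, at -0.33 without Ref replicate 1 and 0.10 without Ref replicate 2, and it was -0.15 without Ctr replicate 3 and -0.15 after the length correction. Only 1 precursor passed an unadjusted p of 0.05 without Ctr replicate 1, Ctr replicate 3, Ref replicate 1 or Ref replicate 2 (each left out on its own), where 2.06%, 3.74%, 1.49% and 1.25% of all genes passed. The 3 comparisons share libraries, so their values are set side by side and are not independent of each other.

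**Figure D2:**
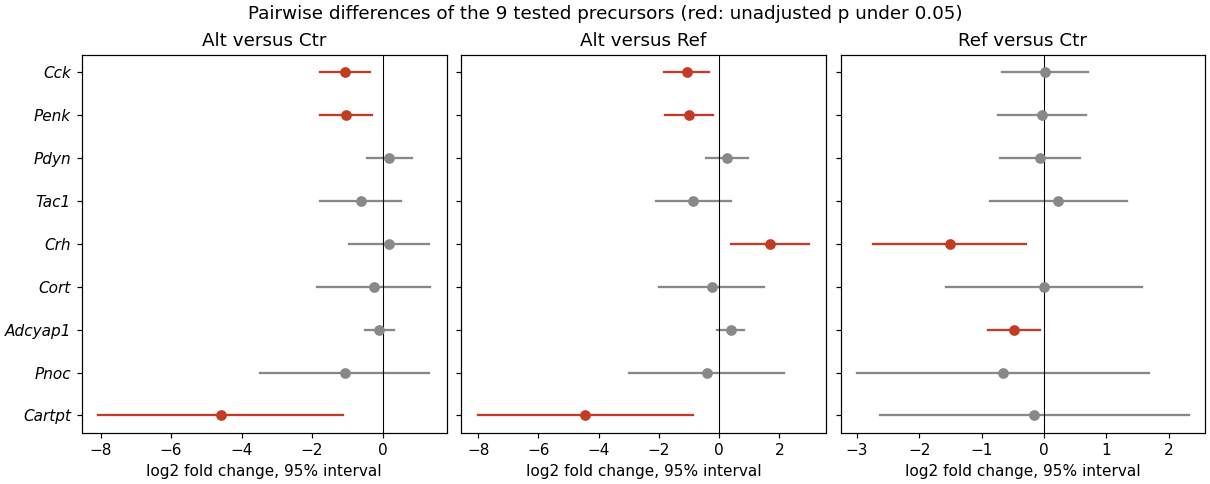
Log2FC with its 95% confidence interval from edgeR's quasi-likelihood test for the 9 tested precursors in Alt versus Ctr, Alt versus Ref and Ref versus Ctr, each panel with its own horizontal scale. Genes with an unadjusted p under 0.05 are red: Cck, Penk and Cartpt on the left, these and Crh in the middle, and Crh and Adcyap1 on the right.

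**Figure D3:**
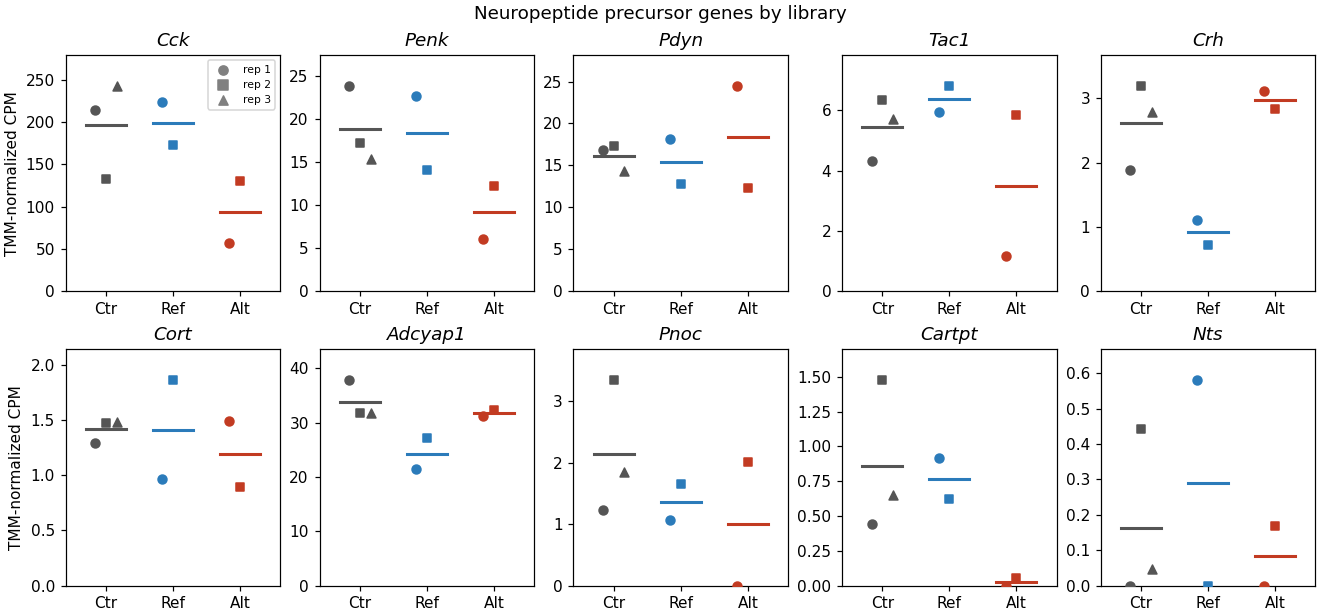
TMM-normalized CPM of each precursor gene in every library, with a line at the group mean, replicates shown by symbol and a separate vertical scale for each gene. Alt replicate 1, the red circle, is the lowest library for Cck, Penk and Tac1 and the highest for Pdyn.

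Cck (ENSMUSG00000032532.8, chromosome 9, 121318890 to 121324760, minus strand) encodes the precursor of cholecystokinin, which acts in cortex mainly on the CCKB receptor. Its CPM was 214, 132.8 and 243 in Ctr, 224 and 173 in Ref, and 57.3 and 130.1 in Alt. Both Alt libraries lay below all others, but Alt replicate 2 lay only just below Ctr replicate 2. The group means were 197 ± 57.1 CPM (SD, n = 3) in Ctr, 199 ± 36.2 CPM (SD, n = 2) in Ref and 93.7 ± 51.4 CPM (SD, n = 2) in Alt.

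The Log2FC of Cck was -1.07 (SE 0.325, 95% interval -1.78 to -0.36) in Alt versus Ctr, a 2.10-fold lower level, with an adjusted p of 0.131 in edgeR. Against Ref it was -1.08 (SE 0.348, adjusted p = 0.236), and between Ref and Ctr it was 0.01 (SE 0.313, adjusted p = 1). The exact permutation test gave its smallest possible values for both Alt comparisons, p = 0.2 against Ctr and p = 0.333 against Ref. The size of the difference depended on Alt replicate 1, without which the Log2FC was -0.60 against Ctr (adjusted p = 0.610) and -0.60 against Ref (adjusted p = 0.730). Without Alt replicate 2 it was -1.78 against both groups, where the lone Alt library is assumed to vary like the other groups. In bulk tissue, fewer cells that make a peptide and less precursor RNA per cell cannot be told apart.

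Of the opioid precursors Penk, Pdyn and Pnoc, Penk alone was separated between Alt and Ctr. Penk (ENSMUSG00000045573.10, chromosome 4, 4133531 to 4138819, minus strand) encodes the precursor of the enkephalins, which act on delta and mu receptors. Its CPM was 23.9, 17.2 and 15.4 in Ctr, 22.8 and 14.2 in Ref, and 6.11 and 12.3 in Alt. Both Alt libraries lay below all 5 others, with Alt replicate 1 the lowest.

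The Log2FC of Penk was -1.03 in Alt versus Ctr (SE 0.337, adjusted p = 0.146), a 2.04-fold lower level, and -1.003 in Alt versus Ref (SE 0.362, adjusted p = 0.248). The exact permutation test gave p = 0.2 and p = 0.333, again the smallest possible. Between Ref and Ctr the Log2FC was -0.03 (SE 0.322, adjusted p = 1). Without Alt replicate 1 it was -0.62 against Ctr (adjusted p = 0.646) and -0.58 against Ref (adjusted p = 0.763), and against Ref it was -0.63 without Ref replicate 1 (adjusted p = 0.965). A lncRNA gene on the opposite strand, A830012C17Rik, overlaps Penk and had between 0 and 6 counts in these libraries.

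Pdyn, the precursor of the dynorphins, which act on kappa receptors, had CPM values of 16.8, 17.3 and 14.3 in Ctr, 18.1 and 12.8 in Ref, and 24.5 and 12.3 in Alt. The Alt libraries lay on either side of all the others, so the groups overlapped. Its Log2FC was 0.19 in Alt versus Ctr (SE 0.290, 95% interval -0.45 to 0.82, adjusted p = 0.776), with an exact permutation p = 0.8. With Alt replicate 1 as the only Alt library it was 0.60, and with Alt replicate 2 as the only one it was -0.39, so the sign depended on which Alt library was kept.

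Pnoc, the precursor of nociceptin, had CPM values of 1.24, 3.34 and 1.86 in Ctr, 1.06 and 1.65 in Ref, and 0 and 2.01 in Alt. Alt replicate 1 had 0 counts, where its depth allows a level of up to 0.195 CPM, and Alt replicate 2 had 36 counts, within the Ctr range. The Log2FC was -1.08 in Alt versus Ctr with an interval from -3.47 to 1.32 (adjusted p = 0.631, exact permutation p = 0.6), and -0.09 without Alt replicate 1. A difference in Pnoc was not detectable with this spread.

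Tac1, the precursor of substance P and neurokinin A, showed the same split between the Alt libraries. Its CPM was 4.32, 6.35 and 5.71 in Ctr, 5.94 and 6.82 in Ref, and 1.17 and 5.85 in Alt, from 18 and 105 counts. Alt replicate 2 lay among the Ctr libraries and just below both Ref libraries, while Alt replicate 1 lay far below all others. The Log2FC in Alt versus Ctr was -0.62 (SE 0.523, adjusted p = 0.544, exact permutation p = 0.6). With Alt replicate 2 as the only Alt library it was 0.10, and with Alt replicate 1 as the only one it was -2.21 (adjusted p = 0.00627).

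Cartpt (ENSMUSG00000021647.8, chromosome 13, 100034997 to 100037599, minus strand) encodes the precursor of the CART peptides. Its counts were 9, 30 and 14 in Ctr, 19 and 12 in Ref, and 0 and 1 in Alt, or 0.446 to 1.48 CPM in Ctr, 0.620 to 0.918 CPM in Ref and at most 0.0557 CPM in Alt. Both Alt libraries were at or below the floor of 3 counts, and each of the other 5 libraries was above it. Over the summed counts, the ratio of Alt to Ctr was 0.0351, with an exact 95% interval of 0.000873 to 0.204 that covers counting error only, and the ratio of Alt to Ref was 0.0387 (0.000951 to 0.233). The adjusted p in edgeR was 0.159 for Alt versus Ctr and 0.250 for Alt versus Ref, and 0.621 and 0.742 without Alt replicate 1. Without Ref replicate 1 or Ref replicate 2, the adjusted p for Alt versus Ref was 0.965 or 0.460. The exact permutation test gave its smallest possible values, p = 0.2 and p = 0.333.

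Nts, the precursor of neurotensin, had 0, 9 and 1 counts in Ctr, 12 and 0 in Ref, and 0 and 3 in Alt, and was too low for the edgeR test. Libraries of each group were at 0, and no group stood apart. The ratio of summed counts was 0.558 for Alt to Ctr (0.0987 to 2.17) and 1.86 for Ref to Ctr (0.736 to 4.80), so a difference was not detectable at this depth.

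In Crh and Adcyap1 the Ref libraries, not the Alt libraries, were the lowest. Crh (ENSMUSG00000049796.5, chromosome 3, 19747565 to 19749560, minus strand) encodes corticotropin-releasing hormone, a stress peptide made in cortex by interneurons. Its CPM was 1.89, 3.20 and 2.78 in Ctr, 1.11 and 0.723 in Ref, and 3.12 and 2.84 in Alt, from 14 and 23 counts in Ref and 38 to 65 counts elsewhere. Both Ref libraries lay below all 5 others, and Alt lay within the Ctr range.

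The Log2FC of Crh was -1.51 in Ref versus Ctr (SE 0.562, adjusted p = 1), 1.69 in Alt versus Ref (SE 0.600, adjusted p = 0.244) and 0.18 in Alt versus Ctr (SE 0.519, adjusted p = 0.888). The exact permutation test gave p = 0.2 for Ref versus Ctr and p = 0.333 for Alt versus Ref, the smallest possible. Without Ref replicate 2 the Log2FC was -1.24 in Ref versus Ctr and 1.43 in Alt versus Ref, and neither passed an unadjusted p of 0.05, nor did Ref versus Ctr without Ctr replicate 3, at -1.46. Leaving out either Alt library gave 1.63 and 1.77 in Alt versus Ref, both past it.

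Adcyap1 (ENSMUSG00000024256.8, chromosome 17, 93506445 to 93513965, plus strand) encodes the precursor of PACAP. Its CPM was 37.8, 31.9 and 31.8 in Ctr, 21.4 and 27.3 in Ref, and 31.3 and 32.4 in Alt. As for Crh, both Ref libraries lay below all others. The Log2FC was -0.48 in Ref versus Ctr (SE 0.191, adjusted p = 1), 0.39 in Alt versus Ref (SE 0.208, adjusted p = 0.389) and -0.09 in Alt versus Ctr (SE 0.189, 95% interval -0.50 to 0.32). The exact permutation test gave p = 0.2 for Ref versus Ctr, the smallest possible. The Ref versus Ctr value was -0.39 without Ctr replicate 1 and -0.31 without Ref replicate 1, and neither passed an unadjusted p of 0.05.

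Cort, the precursor of cortistatin, a relative of somatostatin, had CPM values of 1.29, 1.48 and 1.49 in Ctr, 0.967 and 1.86 in Ref, and 1.49 and 0.892 in Alt. The groups overlapped in every comparison. Its Log2FC was -0.25 in Alt versus Ctr with an interval from -1.85 to 1.35, from 16 to 36 counts per library, and with a single Alt library it was 0.08 (replicate 1) or -0.66 (replicate 2), so a difference was not detectable at this depth.

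The study ordered its groups as Ctr, Ref and Alt, and the slope over scores of 0, 1 and 2 was tested per gene. Cck had a slope of -0.49 log2 units per step (SE 0.188, adjusted p = 0.229) and Penk of -0.48 (SE 0.185, adjusted p = 0.234). These 2 of 9 genes passed an unadjusted p of 0.05, where 16.7% of all genes passed, 7.89% lower and 8.84% higher, and 0 precursors and 0% of all genes passed after adjustment in edgeR. In both genes Ref and Ctr were close, with Log2FC values of 0.01 and -0.03. Without Alt replicate 1 the slopes were -0.23 for Cck and -0.25 for Penk, and neither passed. Nor did the slope of Cck without Ctr replicate 3, at -0.44, or that of Penk without Ctr replicate 1, at -0.41.

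Gene length was corrected for as an alternative, since all 10 precursors are short. In Alt versus Ctr this moved Cck to -0.76 (adjusted p = 0.154) and Penk to -0.74 (adjusted p = 0.217), and Cck, Penk and Cartpt still passed an unadjusted p of 0.05. In Alt versus Ref it took Penk to -0.60 (adjusted p = 0.414), no longer past it, and Adcyap1 to 0.58 (adjusted p = 0.279), newly past it, and left Cck at -0.69 and Crh at 2.17 past it. Cort and Adcyap1 changed sign in Alt versus Ctr under this correction, to 0.08 and 0.05, and passed under neither scaling.

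**Figure D4:**
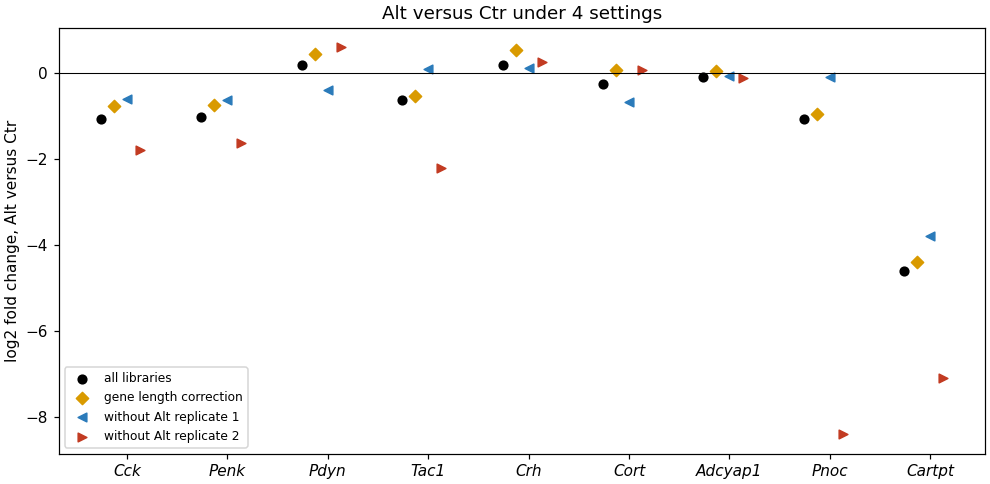
Log2FC in Alt versus Ctr for the 9 tested precursors with all libraries, with a correction for gene length, and without each Alt library. Cck, Penk and Cartpt lie below zero in all 4, Pdyn, Tac1 and Cort change sign between the settings that leave out an Alt library, and the far-low points of Pnoc and Cartpt come from a library with 0 counts and depend on the prior count of the fit.

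The receptors of these peptides were listed as 23 genes, of which 20 were tested. In Alt versus Ctr 5 were higher and 0 lower at an unadjusted p of 0.05, where 9.44% of all genes were higher and 10.3% lower, with a median Log2FC of 0.16. In Alt versus Ref 4 were higher and 1 lower, where 6.71% of all genes were higher and 8.83% lower, and in Ref versus Ctr 0 passed in edgeR. With Alt replicate 1 left out, 3 were higher in Alt versus Ctr with a median of 0.04, where 8.14% of all genes passed, and with Alt replicate 2 left out 6 were higher and 2 lower with a median of 0.54, where 33.2% passed. The median was 0.44 without Ctr replicate 2. In Alt versus Ref only 1 receptor was higher without Alt replicate 1 or Ref replicate 1, 2 without Ctr replicate 1, Ctr replicate 3 or Ref replicate 2, and 7 without Alt replicate 2. All genes passing in these fits were 6.76%, 4.19%, 13.9%, 12.7%, 10.9% and 28.9% in the same order. Oprk1, the kappa receptor of dynorphins, had 6.05 to 7.75 CPM in Ctr, 6.14 and 7.39 in Ref, and 18.9 and 11.2 in Alt. Both Alt libraries lay above all others, and the Log2FC against Ctr was 1.12 (SE 0.285, adjusted p = 0.120) and 0.69 without Alt replicate 1 (adjusted p = 0.605).

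Oprd1, the delta receptor of enkephalins, had 13.3 to 20.1 CPM in Ctr, 15.6 and 18.7 in Ref, and 47.5 and 20.6 in Alt. Alt replicate 2 lay just above the highest Ctr library, and the Log2FC of 1.06 against Ctr (SE 0.311, adjusted p = 0.127) was 0.34 without Alt replicate 1 (adjusted p = 0.737). Adcyap1r1, the PACAP receptor, had 200.5 to 221 CPM in Ctr, 236 and 233 in Ref, and 334 and 278.5 in Alt. Its Log2FC was 0.54 against Ctr (SE 0.144, adjusted p = 0.122) and 0.40 without Alt replicate 1 (adjusted p = 0.554). Ntsr2, a neurotensin receptor found on astrocytes, was the receptor lower in Alt than in Ref, with a Log2FC of -0.68 (SE 0.207, adjusted p = 0.236), and did not pass an unadjusted p of 0.05 without Alt replicate 1, at -0.39. These 4 receptors, named by their small p, did not overlap between the groups named. Among all genes 16.8% were higher in Alt versus Ctr and 26.1% lower in Alt versus Ref without overlap. In the exact permutation test they had the smallest possible values, p = 0.2 for Oprk1, Oprd1 and Adcyap1r1 against Ctr and p = 0.333 for Ntsr2 against Ref.

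Of 23 genes for precursor processing and dense-core vesicles, all tested, 6 were lower and 0 higher in Alt versus Ctr at an unadjusted p of 0.05, with a median Log2FC of -0.26, where 10.3% of all genes were lower and 9.44% higher. In Alt versus Ref 6 were lower and 2 higher, with a median of -0.10, where 8.83% of all genes were lower and 6.71% higher. Those 6 were 3 without Ctr replicate 3 and 1 after the length correction, where 12.7% and 13% of all genes passed. Fewer were lower without Alt replicate 1 or Ref replicate 1 and more without Alt replicate 2, fits that leave a lone library in a group. Scg5, which encodes the 7B2 chaperone of a prohormone convertase, had 78.6 to 120.5 CPM in Ctr, 75.8 and 72.4 in Ref, and 28.1 and 56.7 in Alt. Both Alt libraries lay below all others. Its Log2FC against Ctr was -1.16 (SE 0.274, adjusted p = 0.120, exact permutation p = 0.2) and -0.74 without Alt replicate 1 (adjusted p = 0.487).

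Pcsk1n, which encodes the convertase inhibitor proSAAS, had 267 to 563 CPM in Ctr, 633 and 404 in Ref, and 113 and 291 in Alt. Alt replicate 2 overlapped Ctr but lay below both Ref libraries. Its Log2FC was -1.36 in Alt versus Ref (SE 0.411, adjusted p = 0.236) and -0.82 without Alt replicate 1. The vesicle genes Syt4 and Rab27b had a Log2FC of 0.51 (SE 0.159, adjusted p = 0.236) and 0.59 (SE 0.200, adjusted p = 0.237) in Alt versus Ref. Neither passed an unadjusted p of 0.05 without Ref replicate 1, at 0.41 and 0.36, nor did Rab27b without Alt replicate 1, at 0.46, or after the length correction, at 0.38. With Alt replicate 1 left out, 1 gene of this list was lower in Alt than in Ctr at this threshold, and with Alt replicate 2 left out, 11 were, where 8.14% and 33.2% of all genes passed. The medians were -0.09 and -0.33. The count of lower genes in Alt versus Ctr was 3 without Ctr replicate 1, 2 without Ctr replicate 3 and 3 after the length correction. Of all genes 11.8%, 16.7% and 16.4% passed in these fits.

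Other neuropeptide precursors, 38 genes of which 12 were tested, gave 3 lower and 0 higher genes in Alt versus Ctr at an unadjusted p of 0.05, where 10.3% of all genes were lower, with a median Log2FC of -0.37. These were Sst, Npy and Vip, which are made by cortical interneurons. Sst had 46.9 to 70.7 CPM in Ctr, 57.8 and 52.2 in Ref, and 17.9 and 33.6 in Alt, without overlap. Its Log2FC was -1.15 (SE 0.263, adjusted p = 0.120, exact permutation p = 0.2), and -0.77 without Alt replicate 1 (adjusted p = 0.485).

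Npy had 8.16 to 10.7 CPM in Ctr, 9.86 and 9.61 in Ref, and 4.94 and 5.18 in Alt, and here the Alt libraries were close to each other. Its Log2FC was -0.87 in Alt versus Ctr (SE 0.270, adjusted p = 0.134) and -0.94 in Alt versus Ref (SE 0.290, adjusted p = 0.236), and -0.90 in Alt versus Ref without Alt replicate 1. Vip overlapped between Alt and Ctr, with a Log2FC of -0.60 (SE 0.269, adjusted p = 0.244) and of -0.24 without Alt replicate 1, -0.57 without Ctr replicate 1 and -0.51 without Ctr replicate 2, none of which passed an unadjusted p of 0.05. Apln, the apelin precursor, had a Log2FC of -0.71 in Alt versus Ref (SE 0.252, adjusted p = 0.245), and did not pass without Alt replicate 1, at -0.58, or without Ref replicate 2, at -0.40. After the length correction Vip, at -0.46 against Ctr, and Npy and Apln, at -0.56 and -0.46 against Ref, did not pass. The median of the list in Alt versus Ctr was -0.12 after the length correction, -0.04 without Alt replicate 1 and -1.30 without Alt replicate 2.

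Early genes that neurons induce when active were listed as 12 genes, all tested. In Alt versus Ctr 5 were lower and 0 higher at an unadjusted p of 0.05, with a median Log2FC of -0.53, where 10.3% of all genes were lower, and in Ref versus Ctr 3 were lower and 0 higher, where 0.945% of all genes were lower. Without Alt replicate 1 the Alt versus Ctr median was -0.13, with 2 genes lower and 1 higher, where 8.14% of all genes passed, and without Alt replicate 2 it was -1.22, with 9 lower, where 33.2% passed. It was -0.35 without Ctr replicate 1, with 2 lower beside 11.8% of all genes passing, and 3 were lower without Ctr replicate 2 beside 19.2%. In Ref versus Ctr 2 were lower without Ctr replicate 1, Ctr replicate 2 or Ref replicate 2, and 1 without Ref replicate 1, where 2.06%, 2.73%, 1.25% and 1.49% of all genes passed. Arc, which encodes a postsynaptic protein, had 167 to 308 CPM in Ctr, 227.5 and 226.5 in Ref, and 69.1 and 117 in Alt. Both Alt libraries lay below all others, with a Log2FC of -1.36 in Alt versus Ctr (SE 0.268, adjusted p = 0.120).

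Npas4, an activity-dependent transcription factor, had 20.6 to 30.9 CPM in Ctr, 8.60 and 8.78 in Ref, and 5.52 and 11.6 in Alt. Both Ref and Alt lay below Ctr without overlap, with a Log2FC of -1.55 in Alt versus Ctr (SE 0.317, adjusted p = 0.120) and -1.53 in Ref versus Ctr (SE 0.315, adjusted p = 0.822). Without Alt replicate 1 the Alt versus Ctr values were -1.03 for Arc (adjusted p = 0.425) and -1.11 for Npas4 (adjusted p = 0.438). Egr4, another early transcription factor, had a Log2FC of -0.97 in Alt versus Ctr (SE 0.358, adjusted p = 0.173) and did not pass an unadjusted p of 0.05 without Alt replicate 1, at -0.48, or without Ctr replicate 1, at -0.76. Bdnf, which encodes a neurotrophin, had a Log2FC of -0.57 in Ref versus Ctr (SE 0.206, adjusted p = 1), and did not pass without Ref replicate 1, at -0.47, or without Ctr replicate 2, at -0.45. The summed level of the list was 958 to 1409 CPM in Ctr, 899 to 946 CPM in Ref, and 488 and 964 CPM in Alt replicate 1 and 2. The part of neuronal activity in the precursor values was not tested.

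**Figure D5:**
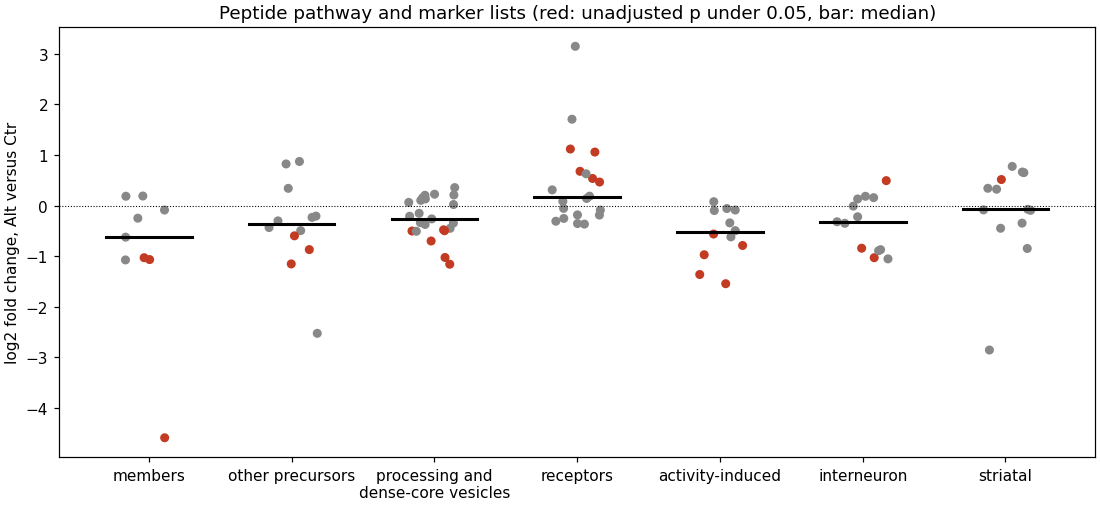
Log2FC in Alt versus Ctr for the tested genes of the precursors described here and of 6 further lists, 1 point per gene, with red for an unadjusted p under 0.05 and a bar at the median. The medians are -0.62 for the precursors, -0.37 for other precursors, -0.26 for processing genes, 0.16 for receptors and -0.53 for activity-induced genes.

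Cell types that make these peptides were checked by their markers. The 13 interneuron markers summed to 619 to 743 CPM in Ctr, 710 to 734 in Ref and 661 to 682 in Alt, so Alt lay within the Ctr range. In Alt versus Ctr 1 was higher and 2 lower at an unadjusted p of 0.05, where 9.44% of all genes were higher and 10.3% lower, with a median Log2FC of -0.32. This background also holds for the excitatory and striatal markers in the same comparison. The median was -0.18 without Alt replicate 1, -0.85 without Alt replicate 2, -0.16 without Ctr replicate 1, -0.14 without Ctr replicate 3 and -0.15 after the length correction. The lower genes were the transcription factor Dlx1 (Log2FC -1.03, adjusted p = 0.157) and Pvalb (Log2FC -0.84, adjusted p = 0.226), and Lamp5 had a Log2FC of -0.73 in Alt versus Ref (adjusted p = 0.266). Lamp5 did not pass an unadjusted p of 0.05 without Alt replicate 1, at -0.29, or without Ref replicate 2, at -0.71. Without Alt replicate 1, 0 interneuron markers passed in Alt versus Ctr in edgeR, where 8.14% of all genes passed.

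Of the 11 excitatory markers, 4 were higher and 1 lower in Alt versus Ctr, and 7 lay above zero and 4 below. The median Log2FC was 0.28, with 0.09 without Alt replicate 1 and 0.03 after the length correction. The summed level of the list was 4769 to 5376 CPM in Ctr, 5505 to 5538 in Ref and 6091 to 6340 in Alt. Most of this sum was Camk2a, at 2879 to 3420 CPM in Ctr, 3499 and 3677 in Ref, and 3922 and 3842 in Alt, with Slc17a7. It therefore says little of the other markers. Cux2 and Rorb were higher, with a Log2FC of 0.82 (adjusted p = 0.120) and 0.53 (adjusted p = 0.150), and Neurod6 was lower (Log2FC -0.65, adjusted p = 0.135). Rorb had a Log2FC of 0.25 after the length correction, and Neurod6 of -0.37 without Alt replicate 1 (adjusted p = 0.653).

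Penk, Pdyn and Tac1 are also abundant in striatal projection neurons, which lie below the PFC. Of 15 striatal markers 13 were tested, and in Alt versus Ctr 1 was higher and 0 lower, with a median Log2FC of -0.07. The sign of the median depended on the libraries kept, at 0.27 without Ctr replicate 1 and 0.10 without Alt replicate 1. Their summed level was 467 to 586 CPM in Ctr, 545 to 627 in Ref and 572 to 686 in Alt, and the defining marker Drd2 was between 0.260 and 3.05 CPM in all libraries, Isl1 at most 0.0483 CPM. The higher gene was Adcy5 (Log2FC 0.51, adjusted p = 0.175). In Alt versus Ref 0 were higher and 2 lower, Ppp1r1b (Log2FC -0.76, adjusted p = 0.274) and Gng7 (Log2FC -0.40, adjusted p = 0.275), where 6.71% of all genes were higher and 8.83% lower. Adcy5 did not pass without Alt replicate 1, Ctr replicate 1 or Ctr replicate 2, at 0.32, 0.47 and 0.40. Ppp1r1b did not pass without Ref replicate 1 or Alt replicate 2, at -0.19 and -0.59, and Gng7 did not pass without Ref replicate 1, Ref replicate 2 or Alt replicate 1, at -0.33, -0.47 and -0.33. After the length correction neither Ppp1r1b nor Gng7 passed, at -0.46 and -0.21. The sum was carried by Adcy5, at 323 and 250.2 CPM in Alt, with Foxp1 and Pde10a, so it says little of the other markers. Ppp1r1b, at 21.96 and 17.3 CPM, and the receptor gene Gpr6, at 0 and 0.279 CPM, lay in Alt below every Ctr library, at 22.8 to 29.1 and 0.787 to 1.39 CPM. In the other direction, Adcy5, Rgs9 and Pde10a lay in Alt above every Ctr library. Rgs9 was at 12.5 and 11.2 CPM in Alt against 5.56 to 10.5 in Ctr, and Pde10a at 90.8 and 66.8 against 56.3 to 65.5. The part of striatal RNA in the values of Penk, Pdyn and Tac1 was not tested.

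Oligodendrocyte markers differed between Ref and both other groups. Of 9 genes 7 were higher in Ref versus Ctr and 7 lower in Alt versus Ref, with medians of 0.77 and -0.83, where 2.19% of all genes were higher and 8.83% lower, while in Alt versus Ctr 2 were lower, where 10.3% of all genes were. Their summed level was 3917 to 4849 CPM in Ref, 2332 to 3257 in Ctr and 2254 to 2783 in Alt, the same Ref libraries in which Crh and Adcyap1 were low. Mbp, a myelin protein gene, was the single gene called after adjustment in Alt versus Ref, with a Log2FC of -1.29 and an adjusted p of 0.0481. Leaving out any library but Alt replicate 2 took its adjusted p past 0.05, to between 0.0559 and 0.252, at a Log2FC of -1.33 to -1.21. Mag and Mobp had a Log2FC of -1.25 (adjusted p = 0.0615) and -1 (adjusted p = 0.229). The part of oligodendrocyte RNA in the values of Crh and Adcyap1 was not tested. Septum and basal forebrain markers, 8 genes, summed to 46.7 to 53.3 CPM in Ctr, 52.1 to 58.6 in Ref and 66.7 to 73.0 in Alt, so both Alt libraries lay above all others. Most of this sum was Zic1, at 21.7 to 32.3 CPM in Ctr, 29.8 and 25.5 in Ref, and 44.3 and 39.7 in Alt, and Zic2, at 15.3 to 28.8 CPM in all libraries, while Lhx8 was at 0 in every library and the cholinergic marker Chat at most 0.279 CPM. The 7 markers of hypothalamus and thalamus summed to 28.4 to 36.3 CPM in Ctr, 35.1 to 37.9 in Ref and 34.2 to 36.6 in Alt, with Slc17a6 at 7.52 to 11.1 CPM and Sim1 at 0 in every library. Olfactory bulb markers summed to 17.8 CPM in Ctr replicate 2 and to 4.96 to 8.36 CPM in the other libraries. Ctr replicate 2 also had the highest level of Cartpt, Pnoc and Crh, at 1.48, 3.34 and 3.20 CPM. Choroid plexus markers summed to 2.64 to 7.60 CPM over all libraries. The part of RNA from these neighbouring regions in the precursor values was not tested. Of the septum, olfactory bulb, hypothalamus and thalamus, and choroid plexus markers only 4, 3, 4 and 2 genes were tested, so few could pass. At most 1 per list passed an unadjusted p of 0.05 in any pairwise comparison. Zic1 was higher in Alt versus Ctr (Log2FC 0.62, adjusted p = 0.143), where 9.44% of all genes were higher. In Alt versus Ref Zic1 was higher (Log2FC 0.60, adjusted p = 0.254) and Prkcd lower (Log2FC -0.84, adjusted p = 0.248), where 6.71% of all genes were higher and 8.83% lower. Prkcd did not pass without Ref replicate 1, Ref replicate 2 or Alt replicate 2, at -0.88, -0.80 and -0.63.

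The genes whose log2 CPM followed each precursor most closely were found by Pearson's r over the 7 libraries, which share their depth, their groups and the distance between the Alt libraries, so that high values are easily reached. Closest to Cck were Pa2g4 (r = 0.999) and Hdgfl2 (r = 0.995), and closest to Penk were Uck1 (0.993) and Ccdc166 (0.992). For Tac1 they were Dtwd2 (0.996) and Nek3 (0.994), for Pnoc Msrb1 (0.998) and Ap1s2 (0.993), and for Cartpt Polr2h (0.989) and Tubb2b (0.988). For Crh they were Scn3b (0.972) and Nat10 (0.971), for Adcyap1 Pnma2 (0.983) and Ugcg (0.965), for Pdyn Map3k4 (0.957) and Polh (0.954), and for Cort Itgam (0.954) and Sox7 (0.949). Among the precursors themselves the highest r was 0.957 between Tac1 and Pnoc, followed by 0.885 between Cck and Penk, and the lowest was -0.802 between Pdyn and Tac1.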

How the data were processed

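RNA from PFC was enriched for polyadenylated transcripts and sequenced as 7 libraries (3 Ctr, 2 Ref, 2 Alt), grouped by their labels. The authors deposited raw counts per gene without normalization, TPM values with equal sums across libraries, and FPKM values computed from count, gene length and library total. The submitters' processing notes name STAR and featureCounts, with versions not given in the sources used here, and the human build hg19, although the genes are mouse. The build of the coordinates and whether counting used strand are not given there, and the coordinates are printed as deposited. The deposited Cck gene ends at 121324760 on the minus strand, while its promoter site in GRCm38.p6 lies at 121495725 to 121495754. Gene positions and promoter sites therefore cannot be laid side by side.

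Counts were normalized by TMM (factors 0.924 to 1.05), filtered with filterByExpr by group and tested with edgeR 4.0.16 (glmQLFit and glmQLFTest, R 4.3.3) on group means or on a score of 0, 1 and 2. All 7 libraries shared 1 estimate of the spread, and Benjamini-Hochberg adjustment covered 17254 genes. Differences were counted at 0.05. Single genes were also compared by an exact two-sided permutation test of mean CPM over libraries (scipy), added after the edgeR results were seen. Log2 CPM used a prior count of 2. The floor was 3 counts, and intervals at 95% over summed counts are exact and cover counting error only. DESeq2 1.42.0, RLE size factors, no filter, a loess correction for gene length with span 0.3, the replicate number as a block, fits of 2 groups, deposited TPM and leaving out each library were tried as alternatives. Scripts were tested on simulated data.

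The precursors and the gene lists were chosen with earlier results of these data known. From each list at most 4 genes, or 3 for cell markers, were named by their smallest p in the 3 pairwise comparisons, where it was under 0.05. For each tested precursor the 2 protein-coding genes of highest r were named. Slc17a7, Camk2a, Zic2, Lhx8, Chat, Slc17a6, Sim1, Drd2, Isl1, Foxp1, Pde10a, Rgs9 and Gpr6 were named outside this rule, after their values were seen, as marker checks. The transcript carried by the virus was not analysed here.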

Additional observations from a re-analysis of the deposited data

How the results depend on the processing

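Among 459 alternative values of the precursors 426 kept their side of the unadjusted threshold of 0.05, 23 lost it, 10 newly passed it and 0 changed sign while past it, and 32 that did not pass changed sign. Of 390 values of other named genes 45 lost it. Leaving out each library in turn gave 1 to 6 precursors in Alt versus Ctr (1 without Alt replicate 1, 6 without Alt replicate 2), 1 to 7 in Alt versus Ref (2 without either Ref library, 1 without Alt replicate 1, 7 without Alt replicate 2), 1 to 2 in Ref versus Ctr and 0 to 3 in the trend. All genes past the same p ranged from 1505 to 6259, 790 to 5451, 236 to 1040 and 1319 to 3775, lowest without Alt replicate 1, Ref replicate 1, Ref replicate 2 and Alt replicate 1, and highest without Alt replicate 2. After adjustment these ranges were 0 to 4 precursors in Alt versus Ctr and in Alt versus Ref, with 4 without Alt replicate 2, and for all genes 0 to 3451, 0 to 2708, 0 to 5 and 0. DESeq2 called 2, 1, 0 and 0 precursors and 1123, 449, 6 and 610 genes in Alt versus Ctr, Alt versus Ref, Ref versus Ctr and the trend, while with every gene above 0 counts edgeR gave 2, 2, 0 and 2 precursors and 1484, 850, 40 and 1136 genes. In Alt versus Ref the 1 gene called became 0 with RLE factors, with the replicate block and with the 2 groups alone. With the replicate block 2, 3, 0 and 1 precursors passed the unadjusted p, and the counts of genes were 2180, 1554, 430 and 2204. Replicate numbers are only labels: deviations of same-numbered libraries correlated between -0.0984 and 0.0702. Under the block Cck in Alt versus Ctr, at -0.89, and in the trend, at -0.44, Cartpt in Alt versus Ref, and Crh and Adcyap1 in Ref versus Ctr, at -1.46 and -0.52, no longer passed the unadjusted p, and the median over the precursors was -0.81 in Alt versus Ctr, -0.98 in Alt versus Ref and -0.16 in Ref versus Ctr. The share of higher genes among those past the unadjusted p was 43.2% in Alt versus Ref and 57% after the length correction, and 69.9% in Ref versus Ctr and 36.8% after it. DESeq2 gave 51.3% and 59.6%, and leaving out each library gave 31.1% to 46.9% (lowest without Ref replicate 1) and 55.9% to 82.2% (lowest without Ref replicate 2, highest without Ref replicate 1). The deposited TPM gave the same 3 precursors lower in Alt than in Ctr without overlap. The cause of these changes was not tested. Levels under about 3 counts, as for Nts, Cartpt and Pnoc in Alt replicate 1, limit what could be detected.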
